A study of Mus musculus with 6 samples.

Results

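The 40 genes described here encode the machinery of mitosis and cytokinesis: the mitotic cyclins and their kinase, the kinases and checkpoint proteins of the spindle, centromere and kinetochore proteins, spindle motors, and the proteins that cut a dividing cell apart. They were taken as a list of G2/M gene symbols, chosen with earlier results of these data known. The symbols were matched by Ensembl identifier to the 56940 genes counted in each library, where all 40 were found. RNA was sequenced from mouse lens capsules carrying the lens epithelial cells that stay behind when the fiber cell mass is removed, a model of cataract surgery. The 72 h group held 3 libraries from capsules harvested 72 h after that operation, and the 0 h group held 3 libraries from capsules harvested directly after it. Each library pooled 5 capsules of one interval. In each mouse the second eye was operated on 72 h after the first, so both intervals could come from the same animals; which capsules shared an animal is not given. All 6 libraries carry the labels wildtype, C57BL/6 and cataract surgery, and their descriptions also hold the string RUNX_Cre_N, which no source used here explains. Age and sex are not given. Nothing ties a pool to single animals, so p-values speak only of how far these pools varied.

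In a dividing cell, cyclin B with its kinase Cdk1 starts mitosis, and the Aurora and Polo kinases build the spindle. The spindle assembly checkpoint then holds the cell until every kinetochore is attached to microtubules. Its release lets the anaphase-promoting complex, a ubiquitin ligase, destroy cyclin B and securin, after which the sister chromatids part and the central spindle places the cleavage furrow. Many genes of this program are silent outside G2 and M. They are switched on together through promoter elements bound by the MuvB, B-Myb and FoxM1 proteins (the cell cycle genes homology region, or CHR) and by NF-Y (the CCAAT box). In the adult lens, division is sparse and is found mainly in a band of epithelium near the equator.

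Of the 40 genes, 39 rose by 72 h and none fell. The background was 21.0% of the 15407 tested genes called higher and 17.5% called lower, at an edgeR quasi-likelihood p of 0.05 after Benjamini-Hochberg adjustment across the whole table. The median log2 change of the 40 was 2.79, a 6.90-fold rise, against a median of -0.02 over all tested genes. All 39 rose at least 2-fold (background 13.5%), 34 at least 4-fold (background 7.98%) and 11 at least 8-fold (background 4.95%). The 39 and the 34 include Aurkb, Bub1 and Kif2c, and the 11 include Bub1 and Kif2c. These genes passed the filter on low counts only through their 72 h libraries, so their calls are no independent support. For 39 genes every 72 h library lay above every 0 h library (background 26.5%), and for the remaining one, the securin gene Pttg1, every 72 h library lay below every 0 h library (background 26.9%). At an unadjusted p under 0.05, 0 of the 40 were lower, and DESeq2 (background 19.0% lower) and limma voom (background 19.2% lower) also called 0 lower. In bulk tissue a change in the number of dividing cells and a change in the RNA per cell cannot be told apart.

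Levels are given as CPM, read counts of a gene relative to all reads in genes, after adjusting library size for composition by edgeR's TMM method, and values of a group are listed for replicates 1, 2 and 3. Summed over the 40 genes, the level was 2389, 2036 and 1423 CPM in the 72 h libraries, against 296, 300.5 and 276 CPM in the 0 h libraries. The means were 1949 ± 489 CPM at 72 h and 291 ± 13.0 CPM at 0 h (SD, n = 3 each). As raw reads this was 20640, 17622 and 11639 counts at 72 h, against 3422, 3550 and 3501 at 0 h. The 0 h libraries lay close together, whereas the 72 h libraries spread widely with replicate 3 the lowest.

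**Figure D1:**
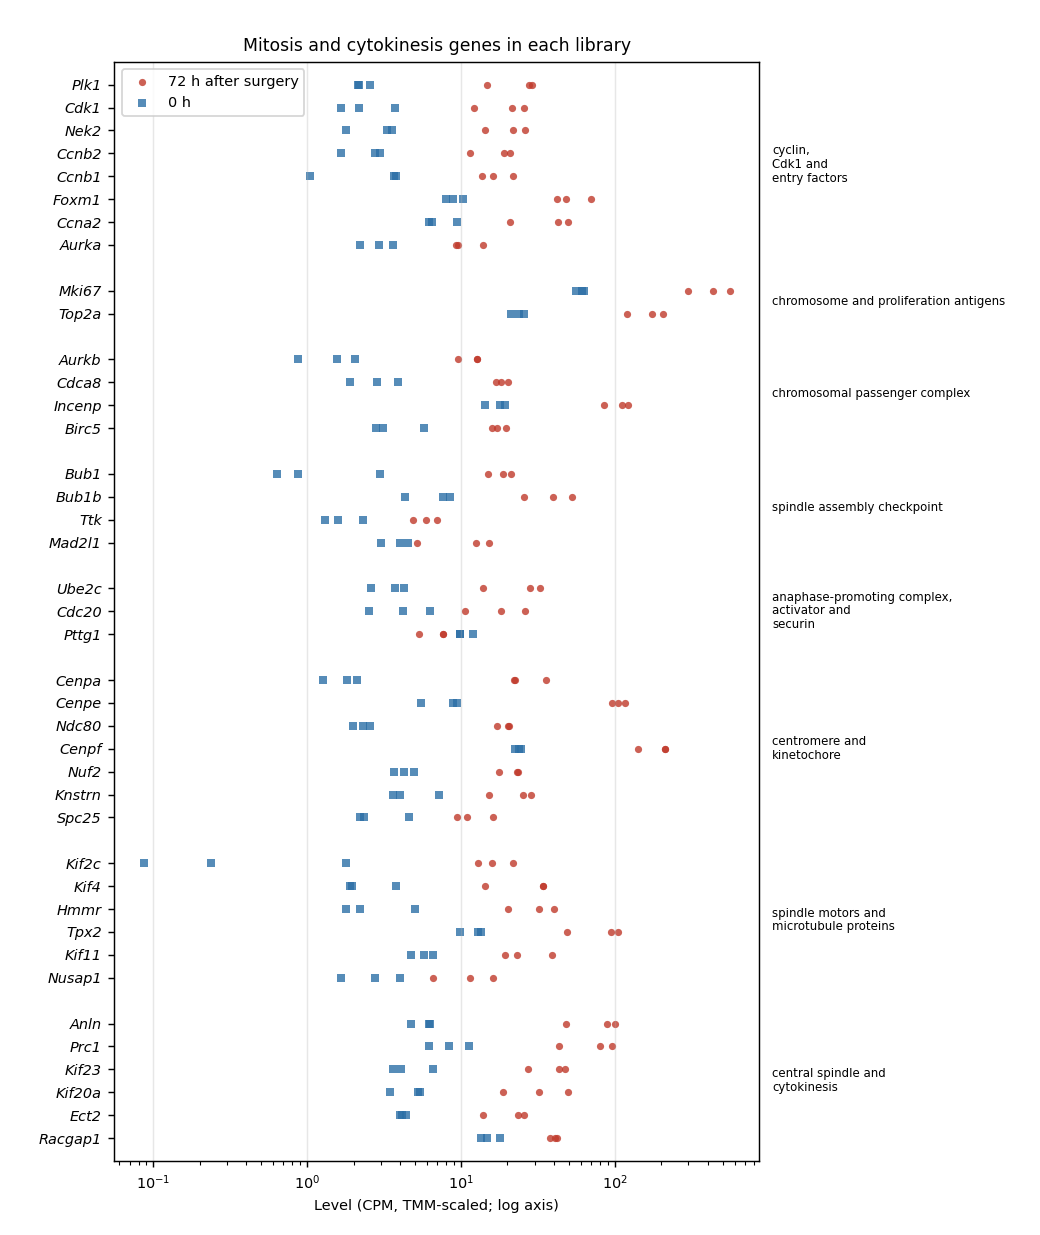
Level of each of the 40 genes in every library, in TMM-scaled CPM on a log axis, grouped by role; circles are the 3 libraries at 72 h and squares the 3 libraries at 0 h. In 39 rows the circles lie right of all squares, and in the row of Pttg1 they lie left of them.

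Each 72 h library had 8453450 to 8945397 reads assigned to genes, and each 0 h library 11338820 to 12432688. The libraries carried lens markers: of 8 lens epithelial genes 0 rose and 7 fell, with a summed level of 1053 to 1218 CPM at 72 h and 2266 to 2379 CPM at 0 h, and all 7 fiber cell genes found in the files fell. Markers of immune and stromal cells rose too. The marker counts stand beside backgrounds of 21.0% of tested genes higher and 17.5% lower. Of 14 macrophage and monocyte markers 10 rose and none fell, and their sum was 274, 394 and 202 CPM at 72 h, against 33.9, 35.9 and 51.6 CPM at 0 h. Of 12 neutrophil markers 4 passed the filter and 3 rose. These 4 passed only through their 72 h libraries, in which they were high, so their calls are not weighed against the background. The same holds for Adgre1, Cd68, Itgam, Ccr2, Fcgr1, Aif1 and Tyrobp of the macrophage list, and for Dcn and Lum of the stromal list. Neutrophil marker sums were 52.9, 26.6 and 167 CPM at 72 h and 0.931 to 2.45 CPM at 0 h, while Ly6g, Elane, Mpo, Camp and Ngp were at 0 counts in every library. Ltf alone, which was not called (adjusted p = 0.0951), gave 3.59, 3.70 and 135 CPM of the 72 h sums; without it they were 49.3, 22.9 and 31.5 CPM at 72 h, and 0.931 to 1.58 CPM at 0 h. Without 72 h replicate 3 or without 0 h replicate 1, 5 neutrophil markers rose. Fibroblast and stromal markers rose for 4 and fell for 1 of 6 tested genes of 8 listed, with sums of 790 to 1485 CPM at 72 h and 232 to 270 CPM at 0 h; 2 of the risers, Col1a1 and Col1a2, are matrix genes that epithelial cells in transition also express, and Dpt was at 0. Of 10 T, B and NK cell markers none passed the filter (sums of 0.347 to 4.04 CPM at 72 h and 0.339 to 0.432 CPM at 0 h, with Cd3d, Cd79a and Ms4a1 at 0). Endothelial and pericyte markers summed to 7.41 to 20.2 CPM at 72 h and 6.55 to 11.2 CPM at 0 h, with 3 of 8 tested and none called. Photoreceptor markers fell for 8 of 10, pigmented and ciliary epithelium markers for 3 of 7, and none of the 3 tested red blood cell markers was called. The part of any of these cells in the mitotic counts was not tested.

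The genes that bring a cell into mitosis all rose. Cdk1 (ENSMUSG00000019942), the kinase that drives entry, had 25.6, 21.5 and 12.1 CPM at 72 h, against 2.16, 3.73 and 1.66 CPM at 0 h. Its B-type cyclin partners rose as well. Ccnb1 (ENSMUSG00000041431) had 13.7, 21.7 and 16.1 CPM at 72 h, against 1.04, 3.64 and 3.79 CPM at 0 h. Ccnb2 (ENSMUSG00000032218) had 18.9, 20.9 and 11.5 CPM at 72 h, against 2.77, 2.96 and 1.66 CPM at 0 h. In all of these the groups stood well apart, and the lowest 72 h library was more than 3-fold above the highest 0 h library. The log2 changes were 2.97 ± 0.41 for Cdk1, 2.60 ± 0.46 for Ccnb1 and 2.79 ± 0.37 for Ccnb2, with adjusted p of 3.52e-04, 0.00159 and 2.77e-04. Ccna2 (ENSMUSG00000027715), the cyclin of S phase and early mitosis, had 49.4, 42.5 and 20.9 CPM at 72 h, against 9.43, 6.43 and 6.15 CPM at 0 h (log2 change 2.36 ± 0.33, adjusted p = 4.19e-04). The Polo kinase gene Plk1 (ENSMUSG00000030867), which acts at centrosomes, kinetochores and the cleavage furrow, had 27.8, 28.8 and 14.7 CPM at 72 h, against 2.16, 2.54 and 2.13 CPM at 0 h. Its rise of 3.38 ± 0.34 in log2 units (adjusted p = 4.28e-05) was the largest of the 8 entry genes by fitted value, though the standard errors of Plk1 and Cdk1 overlap. Nek2, a kinase that splits the centrosomes, rose by 2.84 ± 0.37 and Aurka, the Aurora kinase of the spindle poles, by 1.89 ± 0.37 on the log2 scale. Foxm1 (ENSMUSG00000001517), the transcription factor of this gene program, had 70.0, 47.8 and 41.9 CPM at 72 h, against 10.2, 7.96 and 8.91 CPM at 0 h, and its log2 change was 2.56 ± 0.23 (adjusted p = 2.11e-05).

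The promoters of these genes could be read for 34 of the 40, in RefSeq windows on mouse build GRCm38.p6 that run from 250 bases before to 50 bases after each annotated start; Ect2 and Prc1 have 2 starts each, giving 36 windows. Ccna2, Foxm1, Aurkb, Incenp, Tpx2 and Kif20a have no window in the table. The CHR was searched as TTTGAA or TTCGAA and the CCAAT box as CCAAT, both on either strand; by their letters the motifs can share at most 1 base. CHR letters stood in 27 of 36 windows (75.0%), against 19.2% of all 32851 windows in the table and 13.7% of the 13783 windows of tested genes. CCAAT letters stood in 27 of 36 (75.0%), against 37.4% of all windows, and at least 2 CCAAT copies in 19 of 36 (52.8%), against 11.7%. Both motifs were present in 24 windows (66.7%), against 7.52% of all windows. These letters describe the windows; they do not show that a factor is bound there. The promoters of 3 mitotic entry genes that rose are given here with that of Pttg1, the gene that did not, to set their motifs side by side; capitals mark CHR and CCAAT letters, and a CCAAT box on the opposite strand reads ATTGG. The last 50 bases of each lie downstream of the start.
Ccnb2, chr9:70421505-70421804, minus strand: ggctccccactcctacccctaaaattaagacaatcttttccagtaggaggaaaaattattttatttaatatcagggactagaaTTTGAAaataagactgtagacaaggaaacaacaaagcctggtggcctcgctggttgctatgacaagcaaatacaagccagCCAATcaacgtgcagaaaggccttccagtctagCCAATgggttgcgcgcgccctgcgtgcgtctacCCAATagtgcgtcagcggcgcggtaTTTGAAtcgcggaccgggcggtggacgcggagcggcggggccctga
Cdk1, chr10:69352863-69353162, minus strand: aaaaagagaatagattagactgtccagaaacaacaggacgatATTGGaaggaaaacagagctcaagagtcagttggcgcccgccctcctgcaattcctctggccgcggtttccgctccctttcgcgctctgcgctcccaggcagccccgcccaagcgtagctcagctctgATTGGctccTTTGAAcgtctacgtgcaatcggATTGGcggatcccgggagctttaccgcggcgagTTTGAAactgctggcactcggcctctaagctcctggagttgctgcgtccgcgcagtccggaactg
Plk1, chr7:122159185-122159484, plus strand: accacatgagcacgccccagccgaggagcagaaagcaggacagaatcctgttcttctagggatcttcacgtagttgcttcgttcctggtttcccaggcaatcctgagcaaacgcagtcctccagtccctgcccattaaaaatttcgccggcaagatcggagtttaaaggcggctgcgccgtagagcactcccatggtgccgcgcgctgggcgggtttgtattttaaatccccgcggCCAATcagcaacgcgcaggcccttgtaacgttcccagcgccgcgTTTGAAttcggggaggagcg
Pttg1, chr11:43425932-43426231, minus strand: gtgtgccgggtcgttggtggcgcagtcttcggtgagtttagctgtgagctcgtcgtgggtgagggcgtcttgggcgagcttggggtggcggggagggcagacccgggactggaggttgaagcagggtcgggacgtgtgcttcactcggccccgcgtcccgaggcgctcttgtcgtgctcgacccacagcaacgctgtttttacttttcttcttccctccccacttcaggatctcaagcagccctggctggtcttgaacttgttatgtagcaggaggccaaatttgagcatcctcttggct

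In Ccnb2, 3 CCAAT boxes precede a CHR centred 7 bases past the start, and a further CHR lies 164 bases before it. Cdk1 has CHR letters centred 68 and 12 bases before the start, with 3 CCAAT boxes on the opposite strand. Plk1 has a single CCAAT box 12 bases before and a CHR 33 bases past the start. The Pttg1 window holds neither motif. It shares this with 5 genes that rose (Birc5, Mad2l1, Nuf2, Knstrn and Nusap1), so the 6 windows without either motif include both outcomes. Within 50 bases of the start, on either side, CHR letters stood in 25 of 36 windows (69.4%), against 5.31% of all windows, a distance chosen after the positions were seen.

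**Figure D2:**
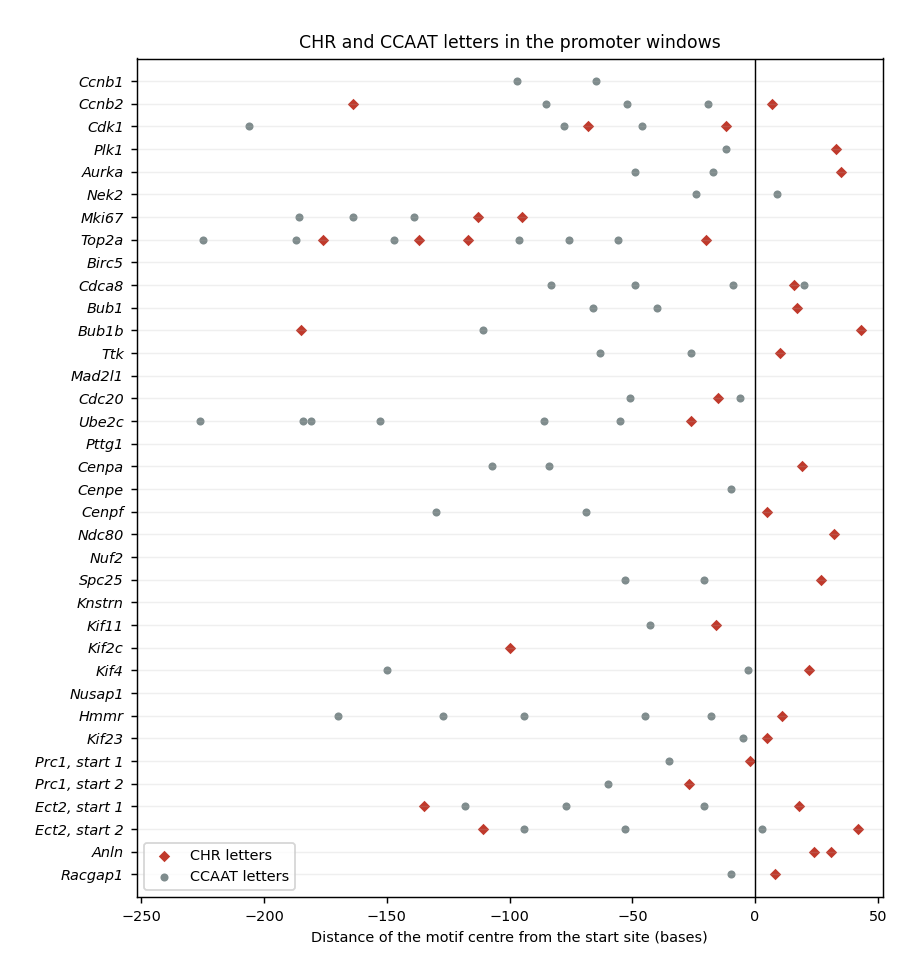
Position of CHR letters (diamonds) and CCAAT letters (circles) in the 36 promoter windows of 34 genes, in bases from the annotated start site (vertical line). CHR letters gather within 50 bases of the start in 25 windows, CCAAT letters lie mostly upstream, and 6 rows, Pttg1 among them, are empty.

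Both chromosome-bound proliferation antigens rose by nearly the same factor. Mki67 (ENSMUSG00000031004), which coats mitotic chromosomes and is the usual stain for cycling cells, had 558, 431 and 297 CPM at 72 h, against 62.8, 61.0 and 55.6 CPM at 0 h. Top2a (ENSMUSG00000020914), which untangles sister chromatids, had 205, 175 and 120.5 CPM at 72 h, against 23.9, 25.7 and 21.1 CPM at 0 h. Their log2 changes, 2.84 ± 0.22 and 2.82 ± 0.19, differed by less than 1 standard error of either. Mki67 alone made up 21.8% of the summed counts of the 40 genes at 72 h and 20.5% at 0 h, and Top2a 8.54% and 8.09%, so the make-up of the set by these 2 genes was nearly the same at both times. Scaled to the length of its exons, Mki67 was also the most abundant of the 40, at 42.6 CPM per kb at 72 h, and 5.94 CPM per kb at 0 h.

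All 4 genes of the chromosomal passenger complex, which corrects faulty spindle attachments and later marks the cleavage plane, rose. Its scaffold Incenp (ENSMUSG00000024660) had 122, 84.9 and 111 CPM at 72 h, against 17.8, 19.1 and 14.3 CPM at 0 h (log2 change 2.63 ± 0.18, adjusted p = 4.12e-06). Its kinase Aurkb (ENSMUSG00000020897) had 12.6, 12.6 and 9.54 CPM at 72 h, against 1.56, 2.03 and 0.868 CPM at 0 h (log2 change 2.96 ± 0.42, adjusted p = 4.29e-04). The 72 h libraries were far above the 0 h libraries in each case, but per exon length the scaffold was the more abundant, at 24.5 CPM per kb at 72 h against 3.93 CPM per kb for Aurkb. The targeting subunits Birc5, also known as survivin, and Cdca8, or borealin, rose by 2.17 ± 0.34 and 2.67 ± 0.33 on the log2 scale. Incenp is one of 5 genes of the 40 in which 72 h replicate 3 was not the lowest of the 72 h libraries.

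All 4 genes of the spindle assembly checkpoint rose, but 2 of these calls were lost in some of the fits that left out a library. Bub1 (ENSMUSG00000027379), a checkpoint kinase at kinetochores, had 18.6, 21.1 and 14.9 CPM at 72 h, against 0.865, 2.96 and 0.631 CPM at 0 h. Its log2 change was 3.61 ± 0.53 (adjusted p = 5.39e-04), and 4.58 without 0 h replicate 2, the library that held 35 of its 53 counts at 0 h. Bub1b, which encodes the BubR1 inhibitor of the anaphase-promoting complex, rose by 2.52 ± 0.33 in log2 units, with an adjusted p of 2.5e-04. Ttk (ENSMUSG00000038379), the Mps1 kinase that starts checkpoint signalling, had 5.90, 6.93 and 4.89 CPM at 72 h, against 1.30, 2.29 and 1.58 CPM at 0 h, and Mad2l1 (ENSMUSG00000029910), the Mad2 protein that forms the inhibitory complex, had 15.2, 12.5 and 5.14 CPM at 72 h, against 3.03, 3.98 and 4.496 CPM at 0 h. These were the smallest rises of the 39 apart from that of Racgap1, and the lowest 72 h value of Mad2l1, in replicate 3, lay just above its highest 0 h value. Ttk passed the test with a log2 change of 1.77 ± 0.46 (adjusted p = 0.013) and Mad2l1 with 1.51 ± 0.44 (adjusted p = 0.0212), the largest adjusted p of the 39. The call of Ttk was lost without 0 h replicate 1 (adjusted p = 0.0596) or 0 h replicate 3 (0.0569). That of Mad2l1 was lost without 72 h replicate 1 (0.0862), without 72 h replicate 2 (0.0601), without any one of the 0 h libraries (0.0571 to 0.0901) and with the replicate number as a block (0.0504). Over all alternatives adjusted p ranged from 0.00121 to 0.0596 for Ttk and from 0.000515 to 0.0901 for Mad2l1.

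Where the checkpoint hands over to the anaphase-promoting complex, the genes parted ways. Cdc20 (ENSMUSG00000006398), the activator that the checkpoint holds back, had 25.8, 18.3 and 10.5 CPM at 72 h, against 2.51, 6.26 and 4.18 CPM at 0 h, a log2 change of 2.07 ± 0.43 (adjusted p = 0.00366). Ube2c (ENSMUSG00000001403), the conjugating enzyme that primes the substrates of the complex with ubiquitin, had 32.6, 28.1 and 13.8 CPM at 72 h, against 2.59, 3.73 and 4.26 CPM at 0 h, a log2 change of 2.81 ± 0.37 (adjusted p = 2.53e-04). Both were higher in all 3 libraries at 72 h. Pttg1 (ENSMUSG00000020415), securin, the inhibitor of separase that this pathway destroys, had 5.33, 7.62 and 7.58 CPM at 72 h, against 11.9, 9.82 and 9.86 CPM at 0 h. Every 72 h library lay below every 0 h library, on 174 reads in all at 72 h and 379 at 0 h. Its log2 change of -0.62 ± 0.30 was not called by edgeR (adjusted p = 0.133; unadjusted p = 0.0665), and it stayed negative and uncalled in every alternative that tested it (log2 change -0.71 to -0.48, adjusted p from 0.0878 to 0.334). Pttg1 was the only one of the 40 that did not pass the test. Per exon length it ranked 35 of 40 at 72 h, at 3.42 CPM per kb, and 2 of 40 at 0 h, at 5.27 CPM per kb, second to Mki67. Of the summed counts of the 40 genes it held 0.377% at 72 h and 3.62% at 0 h.

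The core subunits of the anaphase-promoting complex are needed throughout the cell cycle, and most of their genes were not called. In a list of 16 subunits and direct partners, 1 gene rose and 3 fell, beside backgrounds of 21.0% and 17.5%, with a median log2 change of -0.10. The riser was Fbxo5, the Emi1 inhibitor of the complex, at 9.01 ± 2.75 CPM at 72 h, against 2.14 ± 1.26 CPM at 0 h (log2 change 2.07 ± 0.50, adjusted p = 0.00903). Among those that fell were the small subunits Anapc13 at 11.01 ± 2.504 CPM at 72 h, against 37.9 ± 1.03 CPM at 0 h (log2 change -1.78 ± 0.20, adjusted p = 1.04e-04) and Anapc16 at 22.7 ± 2.92 CPM at 72 h, against 37.0 ± 3.43 CPM at 0 h (log2 change -0.71 ± 0.17, adjusted p = 0.00802). Without 72 h replicate 3, 3 of these genes rose.

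Centromere and kinetochore genes held some of the largest rises. Cenpa (ENSMUSG00000029177), the histone H3 variant that marks the centromere, had 35.5, 22.3 and 21.9 CPM at 72 h, against 1.82, 2.12 and 1.26 CPM at 0 h. Cenpe (ENSMUSG00000045328), a kinesin that carries chromosomes to the spindle equator, had 116.2, 105.1 and 94.9 CPM at 72 h, against 9.34, 8.80 and 5.52 CPM at 0 h. For both, the 72 h libraries were at least 10-fold above the 0 h libraries by their lowest and highest values. The log2 changes were 3.93 ± 0.33 for Cenpa (adjusted p = 1.53e-05) and 3.74 ± 0.21 for Cenpe (adjusted p = 1.15e-06), the smallest adjusted p of the 40. Cenpf, a large protein of the outer kinetochore, had 212, 209.7 and 140.0 CPM at 72 h, against 22.4, 24.6 and 23.9 CPM at 0 h, a log2 change of 2.98 ± 0.17 (adjusted p = 1.21e-06). The Ndc80 complex, which grips the microtubule, is measured here through 3 of its subunits. Ndc80 rose by 3.07 ± 0.29, Nuf2 by 2.32 ± 0.27 and Spc25 by 1.99 ± 0.41 on the log2 scale, and their levels at 72 h were close, at 2.96, 3.37 and 3.81 CPM per kb. Knstrn, which encodes a protein of kinetochores and spindle poles, rose by 2.21 ± 0.35.

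Spindle motors and microtubule proteins rose in all 6 cases. Kif2c (ENSMUSG00000028678), the microtubule depolymerase MCAK, had 21.9, 15.9 and 12.8 CPM at 72 h, against 0.0865, 1.78 and 0.237 CPM at 0 h. Its 0 h counts were 1, 21 and 3, so its fold change, the largest fitted one of the 40 at a log2 value of 4.57 ± 0.80 (adjusted p = 0.00252), rests on few reads in 2 of the 0 h libraries. It was 6.57 without 0 h replicate 2, and 5.37 with limma voom. Tpx2 (ENSMUSG00000027469), which activates Aurora A and nucleates spindle microtubules, had 105.1, 94.3 and 48.5 CPM at 72 h, against 9.77, 12.9 and 13.4 CPM at 0 h, with a log2 change of 2.78 ± 0.29 (adjusted p = 1.16e-04). Kif4, a chromosome-bound kinesin, and Hmmr, a microtubule-binding protein of the spindle poles, rose by 3.42 ± 0.42 and 3.35 ± 0.43. Kif11, the motor that separates the spindle poles, rose by 2.25 ± 0.31, and Nusap1, which bundles spindle microtubules, by 2.02 ± 0.46 on the log2 scale.

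All 6 genes of the central spindle and of cytokinesis rose as well. Anln (ENSMUSG00000036777), anillin, the scaffold of the contractile ring, had 101, 89.2 and 47.8 CPM at 72 h, against 6.31, 6.18 and 4.73 CPM at 0 h. Racgap1 (ENSMUSG00000023015), a subunit of the centralspindlin complex, had 42.3, 37.8 and 40.5 CPM at 72 h, against 17.8, 14.6 and 13.4 CPM at 0 h. Anln rose by 3.79 ± 0.29 (adjusted p = 1.36e-05) and Racgap1 by 1.39 ± 0.17 (adjusted p = 1.89e-04) on the log2 scale, the smallest rise of the 39. Kif23, the motor subunit that forms centralspindlin together with Racgap1, rose by 3.05 ± 0.30. Per exon length Kif23 was at 4.97 CPM per kb at 72 h, and 0.60 CPM per kb at 0 h, and Racgap1 at 5.67 CPM per kb at 72 h, and 2.16 CPM per kb at 0 h. Prc1 (ENSMUSG00000038943), which crosslinks the central spindle, had 95.4, 79.4 and 43.2 CPM at 72 h, against 8.39, 6.18 and 11.3 CPM at 0 h, a log2 change of 3.07 ± 0.34. Ect2, the exchange factor that switches on RhoA at the furrow, rose by 2.33 ± 0.30, and Kif20a, a kinesin of the midzone, by 2.83 ± 0.37 on the log2 scale.

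**Figure D3:**
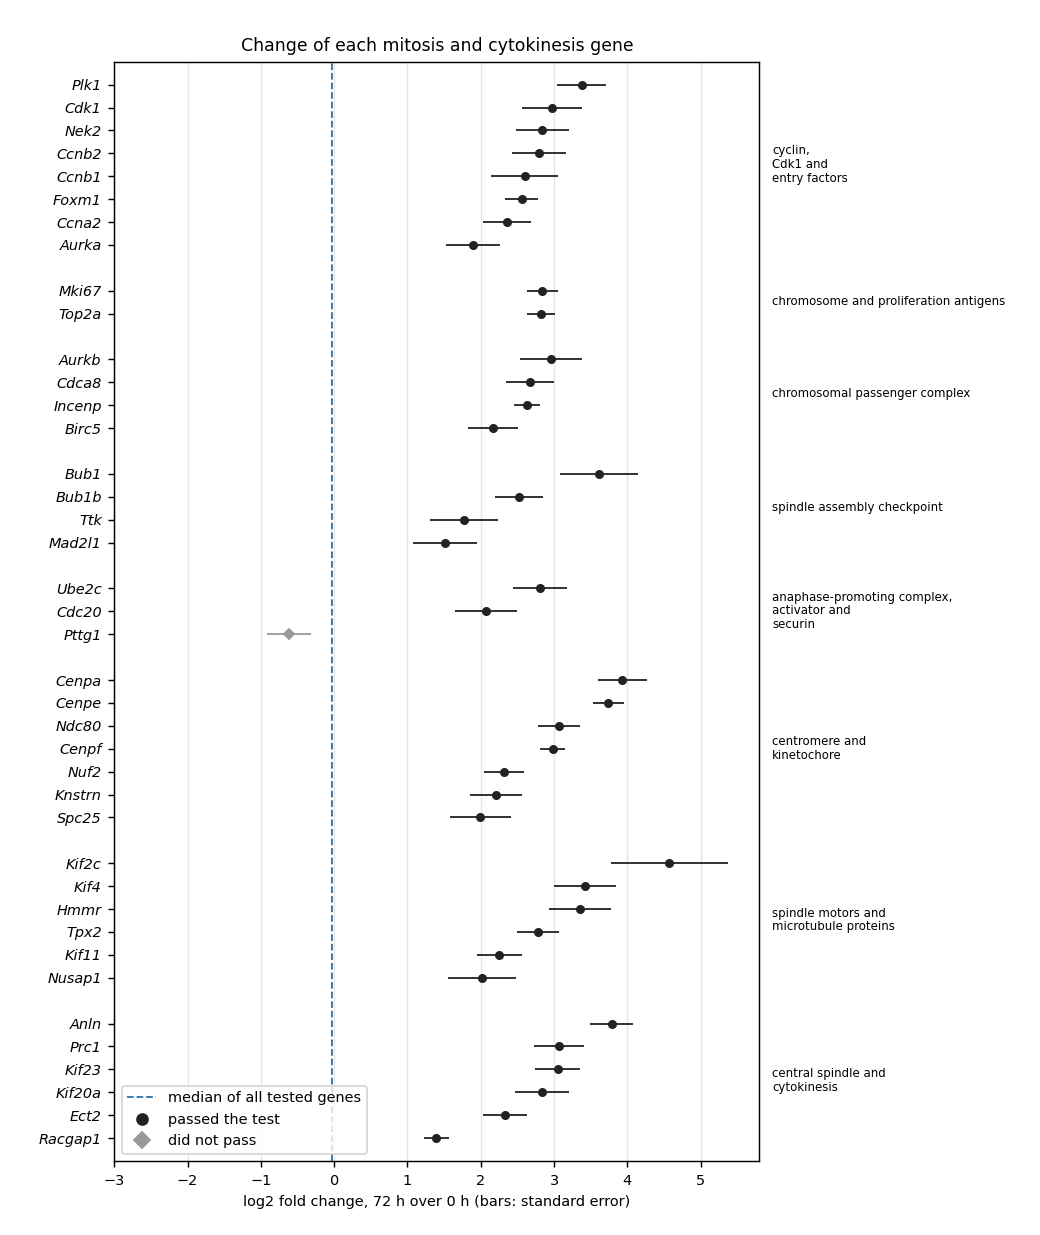
Fitted log2 fold change of each gene, 72 h over 0 h, with its standard error, grouped by role; black circles passed the test, the grey diamond did not, and the dashed line is the median of all tested genes (-0.02). The changes run from 1.39 for Racgap1 to 4.57 for Kif2c, with Pttg1 alone below 0.

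By role the median log2 change was 3.07 for spindle motors and microtubule proteins, 2.98 for centromere and kinetochore genes, 2.94 for central spindle and cytokinesis genes, 2.83 for the antigens, 2.69 for entry genes, 2.65 for the passenger complex and 2.15 for the checkpoint genes. It was 2.07 for Ube2c, Cdc20 and Pttg1, which ran from -0.62 to 2.81. With standard errors of single genes between 0.17 and 0.80, no order among the roles is drawn from these. All 40 genes passed the filter on low counts, although Aurkb, Bub1 and Kif2c did so only through their 72 h libraries, in which they were high.

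Most of the 40 genes also had their lowest 72 h level in the same library. Replicate 3 had the lowest level of the 3 for 35 of the 40 genes, and replicate 1 the highest for 27. How often replicate 3 was lowest over all tested genes was not counted, so this order is not shown to be particular to these genes. The median log2 level relative to a gene's 0 h mean was 2.95, 2.87 and 2.25 in 72 h replicates 1, 2 and 3, while the 0 h libraries lay between -0.10 and 0.10. At 0 h each library was highest for 10 to 17 of the genes and lowest for 10 to 17. In the same 72 h replicate 3, surface epithelium markers summed to 5201 CPM, against 6.02 and 113 CPM in 72 h replicates 1 and 2 and 25.5 to 56.4 CPM at 0 h, with 6 of 8 such markers tested and none called. Its macrophage marker sum was the lowest of the 3, and its neutrophil marker sum was the highest only with Ltf; the part of these in its lower mitotic levels was not tested. Without 72 h replicate 3, 39 of the 40 genes rose (background 21.9%) with a median log2 change of 3.02. The median coefficient of variation over the 40 genes was 29.1% at 72 h and 25.6% at 0 h, against 24.7% and 13.8% over all tested genes. The 2 sets were not matched for level, and low counts raise this coefficient, so no difference in spread is drawn from it.

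**Figure D4:**
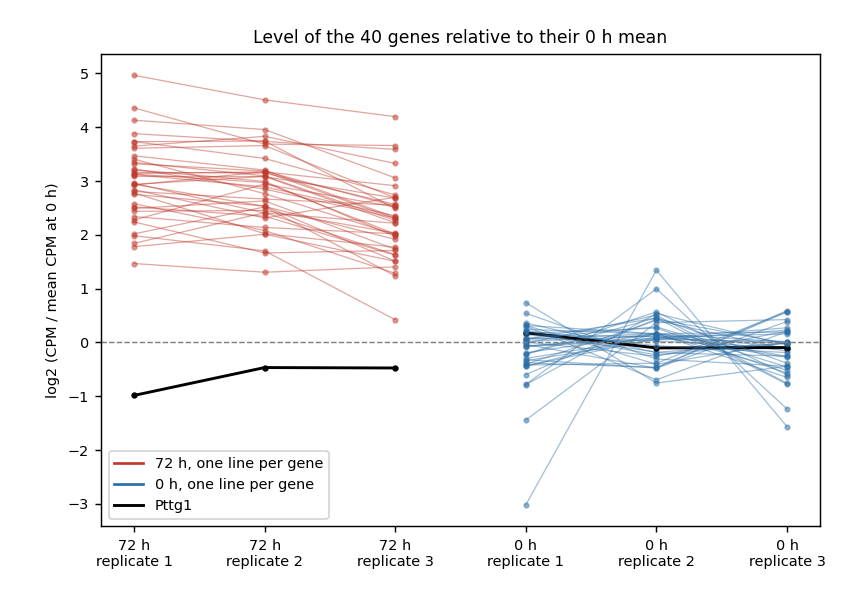
Level of each of the 40 genes in every library as log2 of the ratio to its mean at 0 h; a thin line joins the values of one gene within a group, with no order among replicates, and Pttg1 is in black. The 72 h values of the other 39 genes lie above 0 in every library and are lowest in replicate 3 for 35 of the 40 genes.

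In a list of 60 other mitotic genes, among them condensins, kinetochore and centrosome genes, 46 (76.7%) rose and 2 (3.33%) fell. The backgrounds were 21.0% higher and 17.5% lower, and the median log2 change of the list was 2.20. Those with the smallest p were the cytokinesis kinase gene Cit, at 225 ± 44.8 CPM at 72 h, against 20.9 ± 3.98 CPM at 0 h (log2 change 3.43 ± 0.19, adjusted p = 1.21e-06), and the spindle gene Tacc3, at 39.7 ± 5.66 CPM at 72 h, against 6.06 ± 0.547 CPM at 0 h (log2 change 2.71 ± 0.20, adjusted p = 7.44e-06). The genes that fell were Ckap5, a microtubule polymerase also used outside mitosis, at 173 ± 6.33 CPM at 72 h, against 271 ± 10.7 CPM at 0 h (log2 change -0.65 ± 0.09, adjusted p = 3.88e-04), and Stil, which is needed to copy centrioles, at 14.3 ± 5.31 CPM at 72 h, against 35.9 ± 5.55 CPM at 0 h (log2 change -1.32 ± 0.28, adjusted p = 0.00398). Of the risers, Cdc25c, Cks2, Sgo1, Dsn1, Nsl1 and Cenpi passed the filter only through their 72 h libraries, in which they were high. So did Ska1, Ska3, Gtse1, Troap, Depdc1a, Cep55 and Shcbp1. The share that rose includes all of these genes, and their calls are no independent support.

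Replication genes rose as well. Of 30 genes of DNA replication and S phase 29 were tested. Of these 19 (65.5%) rose and 0 fell (0 also at an unadjusted p under 0.05 and with DESeq2 or limma voom). The backgrounds were 21.0% higher and 17.5% lower, and the median log2 change of the list was 1.20. The thymidylate synthase gene Tyms was at 22.7 ± 0.519 CPM at 72 h, against 6.36 ± 0.662 CPM at 0 h (log2 change 1.83 ± 0.23, adjusted p = 1.69e-04), and the helicase subunit gene Mcm6 at 54.4 ± 12.4 CPM at 72 h, against 18.6 ± 2.79 CPM at 0 h (log2 change 1.55 ± 0.20, adjusted p = 2.53e-04). Among G1 cyclins, their kinases and E2f factors 9 of 14 (64.3%) rose and 2 (14.3%) fell, with a median of 1.17. The share that fell was near the background of 17.5%. Cdk6, a kinase of the G1 phase, was at 131 ± 18.5 CPM at 72 h, against 51.1 ± 5.10 CPM at 0 h (log2 change 1.36 ± 0.14, adjusted p = 4.52e-05), and E2f7, a repressor of the E2F family that is itself induced in S phase, at 15.1 ± 7.58 CPM at 72 h, against 2.16 ± 0.721 CPM at 0 h (log2 change 2.80 ± 0.47, adjusted p = 0.00111). The D-type cyclin genes Ccnd2 and Ccnd3 went the other way, with Ccnd2 at 288 ± 37.9 CPM at 72 h, against 463 ± 35.4 CPM at 0 h (log2 change -0.68 ± 0.12, adjusted p = 0.00135) and Ccnd3 at 41.5 ± 5.38 CPM at 72 h, against 66.0 ± 1.33 CPM at 0 h (log2 change -0.67 ± 0.14, adjusted p = 0.00335). Without 72 h replicate 1, 5 of the G1 genes rose. Ccne1 among the G1 risers and Orc1 among the replication risers passed the filter only through their 72 h libraries. The calls of Ccne1 and Orc1 are no independent support.

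Of 19 brakes on the cycle 7 (36.8%) rose and 2 (10.5%) fell, beside backgrounds of 21.0% and 17.5%, with a median log2 change of 0.44. Cdkn2b, an inhibitor of the G1 kinases, was at 41.9 ± 6.15 CPM at 72 h, against 5.89 ± 0.836 CPM at 0 h (log2 change 2.83 ± 0.21, adjusted p = 7.07e-06), and Cdkn1a, the p21 inhibitor, at 23.1 ± 10.1 CPM at 72 h, against 0.189 ± 0.178 CPM at 0 h (log2 change 6.82 ± 0.61, adjusted p = 2.25e-05) (7.87 without 0 h replicate 3). Cdkn1a had 1, 1 and 5 reads in the 0 h libraries, so its fold change rests on few reads. It passed the filter only through its 72 h libraries. Cdkn2a, with 11, 2 and 7 reads in the 0 h libraries, is also among the 7 risers and passed in the same way. The calls of Cdkn1a and Cdkn2a are no independent support. Cdkn1c, the p57 inhibitor expressed in lens cells that leave the cycle, was at 14.4 ± 4.005 CPM at 72 h, against 174 ± 5.48 CPM at 0 h (log2 change -3.59 ± 0.19, adjusted p = 7.00e-07), and Rbl2, the pocket protein p130 of resting cells, at 36.1 ± 6.92 CPM at 72 h, against 74.7 ± 3.28 CPM at 0 h (log2 change -1.05 ± 0.16, adjusted p = 6.03e-04). Of the regulators that act on the CHR and CCAAT elements, Foxm1 rose by 2.56 ± 0.23 on the log2 scale, and Mybl2, the B-Myb gene, counted among the further mitotic genes and named here after its value was seen, was at 11.6 ± 5.23 CPM at 72 h, against 3.22 ± 1.14 CPM at 0 h (log2 change 1.84 ± 0.44, adjusted p = 0.00847). In a list of 10 MuvB, NF-Y and DP genes 9 were tested, and 2 (22.2%) rose and 1 (11.1%) fell, near the backgrounds of 21.0% and 17.5%, with a median of -0.06. The untested gene, the MuvB gene Lin54, was not matched to any counted identifier, so its level was not read. The subunit gene Nfya was at 39.3 ± 5.17 CPM at 72 h, against 22.9 ± 2.33 CPM at 0 h (log2 change 0.78 ± 0.17, adjusted p = 0.0047) and Tfdp1 at 55.4 ± 7.47 CPM at 72 h, against 35.9 ± 3.73 CPM at 0 h (log2 change 0.63 ± 0.15, adjusted p = 0.00954), while Rbbp4 was at 88.9 ± 6.63 CPM at 72 h, against 117.96 ± 3.29 CPM at 0 h (log2 change -0.41 ± 0.10, adjusted p = 0.0109). The call of Tfdp1 was lost without 0 h replicate 3 (adjusted p = 0.0544) and that of Rbbp4 without 0 h replicate 2 (0.051), which left 0 that fell, while 2 fell without 72 h replicate 1 or 2.

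**Figure D5:**
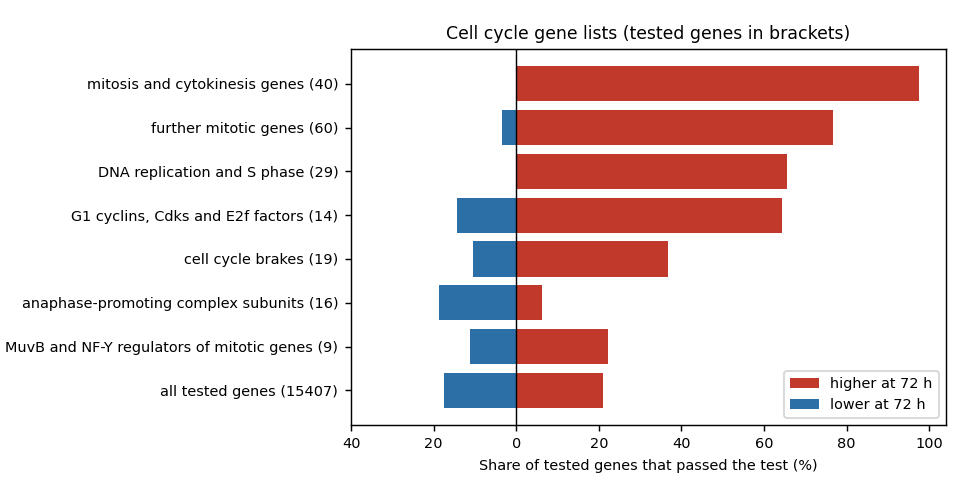
Share of the tested genes of each list that passed the test, higher at 72 h to the right and lower at 72 h to the left, in percent, with the number of tested genes in brackets and all 15407 tested genes in the bottom row. The mitosis and cytokinesis genes reach 97.5% higher and 0% lower. The list of anaphase-promoting complex subunits and direct partners reaches 6.25% higher, from the inhibitor gene Fbxo5 alone, and 18.8% lower.

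Some counts are less certain because of the gene's surroundings. In GENCODE release M21, exons of Kif20a overlap those of Cdc23 on the opposite strand over 29.3% of its exon length, those of Ube2c overlap Tnnc2 over 22.8%, and those of Kif4 overlap Pdzd11 over 15.1%. Ccna2 and Prc1 overlap opposite-strand genes over 12.5% and 11.1%, and 8 further genes of the 40 overlap another gene over 1.35% to 7.09%. The library kit marks strand, per the labels, but the strand setting used in counting is not given, so reads in these stretches may have been shared or dropped. Ccnb1, Ccnb2 and Kif4 have annotated pseudogene copies (Ccnb1-ps, Ccnb2-ps and Kif4-ps), between which reads could be split.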

How the data were processed

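RNA from pooled lens capsules was made into libraries with a stranded kit for low input, per the labels. Per the submitters' processing notes HISAT2, HTSeq and edgeR were used with build GRCm39; which releases of these tools and of the annotation were used, and the strand option, are not given in the sources used here. The authors deposited raw read counts per Ensembl gene for each library, with closing lines of reads given to no gene; these reads, 48.0% to 51.7% of the total at 72 h and 41.9% to 45.2% at 0 h, were left out. Symbols were taken from GENCODE release M21 for 51947 of 56940 identifiers. The members and all gene lists were chosen with earlier results of these data known.

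From the counts, edgeR 4.0.16 (TMM scaling, expression filter at a minimum count of 10 and a total of 15, robust quasi-likelihood fit, 72 h over 0 h) tested 15407 genes in all 6 libraries, with Benjamini-Hochberg adjustment at 0.05. Standard errors are the log2 change divided by the square root of F. DESeq2 1.42.0 and limma 3.58.1 (voom) were alternatives, as were other scalings and filters, the replicate number as a block, and leaving out each library. Groups were taken from the labels. Depth is given as reads assigned to genes. Promoter sequences are from RefSeq (GRCm38.p6); no coordinates on GRCm39 are given. The text names all 40 genes and, from each pathway list, the 2 called genes with the smallest p in each direction. Other names are markers that set a range, or the genes of small groups, named after their values were seen. Pathway genes that passed the filter only through their 72 h libraries, and an untested gene without a matched identifier, are named too.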

Additional observations from a re-analysis of the deposited data

How the results depend on the processing

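Of the 40 genes, 37 to 39 rose under every alternative, the leave-one-out settings included; the lowest count among the others came with a filter of at least 5 CPM in 3 libraries, added after seeing the data, which left out Ttk and Mad2l1. Of 958 single-gene values under alternatives, 948 kept their direction and side of the threshold, 10 lost the call (6 of Mad2l1, 2 of Ttk, 1 each of Tfdp1 and Rbbp4) and 0 reversed. With replicate number as a block 38 of the 40 rose, and 2921 of all tested genes were higher and 2507 lower, against 3230 and 2700 without it; same-numbered libraries did not deviate together (correlations of -0.04, 0.07 and -0.01), so the numbers were not taken as pairs. Leaving out one library gave 2511 to 3646 genes higher and 1877 to 3265 lower. The G1 genes that rose numbered 5 to 10 when a library was left out. Risers among the replication genes numbered 13 to 20 when a library was left out, and 15 to 20 under the other settings. Of the anaphase-promoting complex subunits and direct partners 1 to 3 rose (2 with no filter), and of the MuvB and NF-Y genes 1 to 2. Of the last list 0 to 2 fell, and 2 fell with upper quartile scaling or limma voom. With crystallin and mitochondrial genes left out, the summed level was 2473 CPM at 72 h and 369 CPM at 0 h, since fewer reads make up the total. Searched only before the start, CHR letters stood in 33.3% of the windows, against 17.1% of all windows in the table; within 50 bases of the start, CCAAT letters stood in 52.8%, against 13.6%. For the other changes named here the cause was not tested. A filter of at least 1 CPM in 3 libraries kept the same 15407 genes. Protein motifs were not run. Depth limits Kif2c, Bub1 and Aurkb of the 40 genes, and Cdkn1a and Cdkn2a among the brakes, for which the 0 h libraries held few reads. The same limit applies to the other listed genes named as passing the filter only through their 72 h libraries.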
